A study of Homo sapiens with 2 samples.

Results

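The genes described here are 10 genes of ferroptosis defence and iron handling, SLC7A11, SLC3A2, GPX4, AIFM2, ACSL4, LPCAT3, TFRC, FTH1, FTL and ACO1, out of 49627 genes listed in the libraries. They were chosen by name for their known roles and found by their GENCODE 29 symbol, joined to the Ensembl transcript identifiers of the deposited assemblies. RNA-seq was performed in MDA-MB-231 cells, a human triple-negative breast cancer line with a mesenchymal character, grown in L15 medium with 10% FBS. There were 2 libraries, 1 from cells with stable lentiviral shRNA knockdown of RBMS1, an RNA-binding protein, in the pLKO.1 vector (RBMS1-depleted cells) and 1 from the matching pLKO control line (control cells). The knockdown line was 1 infected and selected cell population, both lines shared the same medium and vector system, and the labels name the knockdown line only as plko_S1, without saying what S1 stands for.

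Ferroptosis is an iron-dependent form of cell death driven by peroxidation of polyunsaturated phospholipids in membranes. Cells hold it back mainly by importing cystine through system xc-, a dimer of the SLC7A11 transporter chain and the SLC3A2 heavy chain, making glutathione from it, and letting the selenoenzyme GPX4 reduce lipid peroxides with that glutathione. AIFM2, also called FSP1, protects membranes in parallel by regenerating reduced coenzyme Q10. On the opposite side, ACSL4 and LPCAT3 place polyunsaturated fatty acids into phospholipids, TFRC brings in the iron that feeds peroxidation, the ferritin chains FTH1 and FTL store it, and ACO1, the iron regulatory protein IRP1, adjusts uptake and storage to the iron supply. Mesenchymal cancer cells are known for a strong reliance on this defence.

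The values are FPKM, a transcript's abundance scaled to its own length and to the size of the library, as Cufflinks estimated them. A gene's level adds up its reference transcripts and any transcript that Cufflinks assembled with at least 1 of the gene's introns, and the range in brackets adds up the 95% bounds given for those transcripts. These bounds cover the estimation within 1 library and not the spread between cultures. The share of all genes with bounds apart was not counted, so bounds apart do not mark a gene as unusual. Since each group has a single library, nothing was tested, and every difference below is a difference between these 2 libraries. Log2 ratios compare RBMS1-depleted with control cells after 1 FPKM was added to both values, genes entered the counts with a mean of at least 1 FPKM, and 2-fold means a log2 ratio of at least 1 in size.

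RBMS1 itself stood at 3.76 FPKM (3.12 to 5.39) in the depleted and 24.1 FPKM (21.7 to 27.7) in the control library, or 15.6% of control, with a log2 ratio of -2.40. Of 6 mesenchymal markers, 6 were at 1 FPKM or more in depleted and 5 in control cells, from SPARC at 1.58 and 0.920 FPKM to VIM at 496 and 563 FPKM. Of the receptors that define triple-negative disease by their absence, ESR1 and PGR were below 0.1 FPKM in both libraries, while ERBB2 was at 7.496 and 7.005 FPKM. The epithelial adhesion gene CDH1 was near 0, at 0.0467 and 0.0952 FPKM, but the epithelial keratin KRT19 was at 84.4 and 69.6 FPKM, so KRT19 went against the mesenchymal label. The luminal genes EPCAM and GATA3 were low but above 1 FPKM, at 1.93 and 2.11 FPKM in depleted and 3.66 and 1.56 FPKM in control cells, and FOXA1 was below 1 FPKM in both. Among all these markers the bounds lay apart for VIM, CD44, FN1, AXL, EPCAM and KRT19, and overlapped for the rest.

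Among the 10 genes, SLC7A11 and FTL had the largest differences, both lower in RBMS1-depleted cells, and SLC3A2 was higher with its bounds apart. By the joining rule 9 of the 10 genes had a mean of at least 1 FPKM, 7 of them lower and 2 higher in depleted cells. Of all 11186 genes with that mean, 5282 were lower and 5904 higher. The median log2 ratio was -0.21 for the 9 genes and 0.02 for all. Without ACO1 and AIFM2, for which no clear direction is given below, 6 were lower and 1 higher. With reference transcripts alone 6 of the 9 were lower and 3 higher, because ACO1 changed sign. No gene of the 9 was 2-fold lower or higher, where 2.8% of all genes were 2-fold lower and 2.96% were 2-fold higher. SLC7A11 was close to that limit and passed it, at -1.05, with a pseudocount of 0.1 FPKM or with TPM scaling. FTL was the gene that dropped out, because the only transcript that GENCODE 29 gives it was listed at 0 in both libraries. Its reads were assigned to another transcript, which is described with the ferritins, and with that transcript 8 of 10 genes were lower, ACO1 among them, the median was -0.24, and again no gene was 2-fold lower or higher beside 2.72% and 2.91% of all genes.

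**Figure D1:**
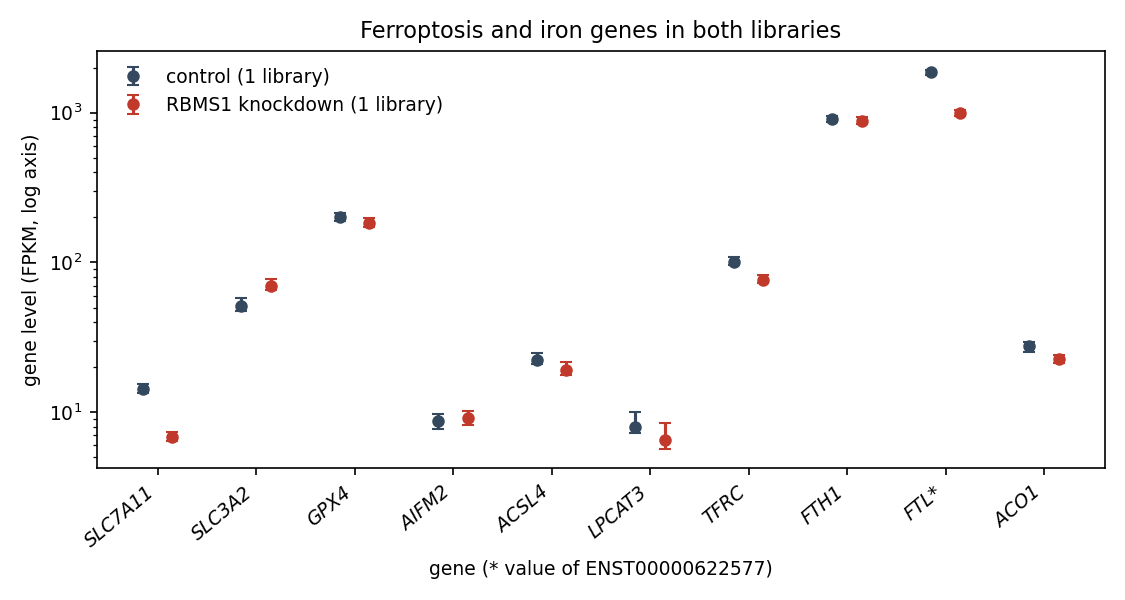
Level of each of the 10 genes in FPKM on a log axis, with points for control cells (dark) and RBMS1-depleted cells (red), 1 library each, and bars for the summed 95% bounds of Cufflinks. The bars do not touch between libraries for SLC7A11, SLC3A2, TFRC, FTL and ACO1, which was not compared with the share over all genes. FTL and FTH1 lie far above all others.

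In control cells the ferritin chains were at the top, followed in order by GPX4, TFRC, SLC3A2, ACO1, ACSL4 and SLC7A11, each apart from the next by its bounds, with AIFM2 and LPCAT3 last and overlapping each other. In RBMS1-depleted cells TFRC and SLC3A2 were no longer separated by their bounds, nor were ACO1 and ACSL4. SLC7A11 stood below AIFM2 and overlapped LPCAT3, the lowest gene in both libraries.

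SLC7A11, the cystine and glutamate exchanger that limits glutathione synthesis in many tumour cells, lies on chromosome 4 (GRCh38, 138164097 to 138242349, minus strand). Its level was 6.85 FPKM (6.38 to 7.41) in RBMS1-depleted and 14.3 FPKM (13.4 to 15.4) in control cells. The depleted level was 47.9% of control, the log2 ratio was -0.96, and the bounds lay apart. As a place within these libraries, 327 of the 11186 genes, or 2.92%, had a ratio as low or lower. In bulk RNA, a smaller share of cells with the transcript and less of it in each cell cannot be told apart.

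The lower SLC7A11 level was seen in the annotated transcript and in the pieces assembled beside it. The protein-coding transcript ENST00000280612 with 12 exons was at 4.61 and 9.67 FPKM in depleted and control cells. Cufflinks also assembled a 6-exon transcript of the gene's 5′ part in both libraries, at 2.24 FPKM in depleted and 2.80 FPKM in control cells, and in control cells alone a 6-exon transcript of the 3′ part at 1.84 FPKM. The 5′ transcripts run on past exon 6, so that 7289 of 8360 bases in depleted and 5773 of 6844 bases in control cells lie outside annotated exons, nearly all in intron 6. These pieces enter the gene's level, and with reference transcripts alone the log2 ratio was -0.93. Summed over the transcripts that cover each annotated exon, exons 1 to 6 were at 6.85 and 12.5 FPKM, 55.0% of control. Exons 7 to 12 were at 4.61 and 11.5 FPKM, 40.05% of control, so both parts were lower in depleted cells and the 3′ part more so. These values sum whole-transcript FPKM and are not reads counted per exon, so exons under the same transcripts share 1 value. The assembly decides how the reads of a gene are divided between such pieces, and its part in the step between exons 6 and 7 was not tested.

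Single-exon fragments were also assembled inside the introns of SLC7A11. There were 15 such fragments over 19734 bases in depleted and 13 over 19424 bases in control cells, with a mean of 1.86 and 2.27 FPKM. Over the 7983 intronic bases covered in both libraries the means were 2.03 and 2.17 FPKM, 93.5% of control. Among 1689 genes with at least 1000 intronic bases covered in both libraries the median was 95.6%, so these fragments of SLC7A11 lay close to the middle, beside 55.0% and 40.05% for the transcripts over its exons. For comparison, the introns of RBMS1 were at 0.779 and 1.52 FPKM over 28117 shared bases, 51.1% of control. The fragments are few and assembled only where reads were dense enough, and they leave out the intronic stretch in the 5′ transcripts above, so exons and introns are not fully separated here.

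The 3′-UTR of ENST00000280612 is long, at 7859 bases, and rich in the letters ATATA, an AU-rich core of the kind that proteins of the RBMS family are known to bind. It holds them 54 times, counted with overlaps on the transcript strand, or 6.87 times per kilobase. Over 8708 expressed 3′-UTRs of at least 200 bases, 62.8% held ATATA, the median was 1.004 per kilobase, and 96.8% held fewer per kilobase than SLC7A11. ACSL4, with a log2 ratio of -0.21, held 12 in 2692 bases, or 4.46 per kilobase, and 90.7% held fewer. TFRC held 1 in 2658 bases, and the 3′-UTRs of the other genes here held none. Those of SLC3A2, FTH1 and FTL are shorter than 200 bases, at 162, 161 and 143 bases, so a count of none says little there. A match is only a description of the sequence, and this search was chosen after the SLC7A11 values were known.

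SLC3A2, the heavy chain that carries SLC7A11 and several other amino acid transporters to the cell surface, was higher in RBMS1-depleted cells. It was at 69.4 FPKM (65.2 to 77.1) in depleted and 51.2 FPKM (47.7 to 58.3) in control cells, 136% of control, with a log2 ratio of 0.43 and bounds apart. Both of its expressed transcripts were higher in depleted cells, ENST00000338663 at 50.2 against 37.1 FPKM and ENST00000377890 at 19.2 against 14.1 FPKM. SLC3A2 RNA was more abundant than SLC7A11 RNA in both libraries, by an FPKM ratio of 10.1 in depleted and 3.58 in control cells, and protein was not measured.

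GPX4, the only glutathione peroxidase that efficiently reduces peroxides within membranes, was at nearly the same level in both libraries. Its level was 185 FPKM (174 to 198) in depleted and 201 FPKM (189 to 215) in control cells, a log2 ratio of -0.12 with overlapping bounds. The transcript for the shorter protein, ENST00000611653, was at 162 and 172 FPKM, and ENST00000354171, which starts upstream of it, was at 22.9 and 28.5 FPKM. GPX4 is a selenoprotein, in which a stop codon inside the reading frame is read as selenocysteine, the residue of its active site. In ENST00000611653 a single TGA stands in frame before the stop codon, at codon 46 of 170, and it is shown in capitals within its surroundings at chr19:1105391-1105417 (GRCh38, plus strand).
GPX4 selenocysteine codon: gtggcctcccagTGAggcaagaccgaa

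Genes that serve selenoprotein synthesis and the thioredoxin system, the neighbours of GPX4 in antioxidant defence, included none that was 2-fold lower or higher among 8 of 10 with at least 1 FPKM, beside 2.8% and 2.96% of all genes, and their median log2 ratio was -0.13. SECISBP2 and SEPHS2, which are needed to decode selenocysteine, had ratios of 0.01 and 0.03. The lowest ratio belonged to TXNRD1, a selenoenzyme that reduces thioredoxin, at 102 against 156 FPKM and -0.61, but its reference transcripts alone gave 0.34, so its direction depended on the assembled transcripts. The highest was TRIT1, a tRNA-modifying enzyme that acts on the selenocysteine tRNA, at 0.19.

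Glutathione synthesis and recycling was covered by a list of 11 genes. Of these, 7 had at least 1 FPKM, none was 2-fold lower or higher, beside the same 2.8% and 2.96%, and the median was -0.03. GCLC and GCLM, the catalytic and modifier subunits of the limiting enzyme, had ratios of 0.02 and -0.06, the latter 0.35 with reference transcripts alone, and GSS, the second enzyme of the synthesis, had the lowest, -0.07.

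AIFM2, the coenzyme Q10 reductase that works alongside GPX4, did not differ beyond its bounds. It was at 9.18 FPKM (8.20 to 10.2) in depleted and 8.71 FPKM (7.75 to 9.75) in control cells, a log2 ratio of 0.07. Its transcripts ENST00000307864 and ENST00000613322 were at 6.60 and 2.58 FPKM in depleted and 6.95 and 1.76 FPKM in control cells, and with ENST00000307864 alone the ratio was -0.06, so the gene has no clear direction. Of 15 genes for coenzyme Q10, tetrahydrobiopterin and vitamin K, the other radical-trapping arms, 13 had at least 1 FPKM, none was 2-fold lower or higher, beside 2.8% and 2.96% of all genes, and the median was 0.03. With so few genes in these lists, a count of 0 says little. PDSS1, which starts the coenzyme Q side chain, had the highest ratio at 9.20 against 6.46 FPKM and 0.45, and GCH1, the limiting enzyme for tetrahydrobiopterin, had the lowest, -0.29.

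ACSL4, the ligase that activates arachidonic and adrenic acid for phospholipids and so raises sensitivity to ferroptosis, had a similar total in both libraries but a different transcript makeup. It was at 19.0 FPKM (17.6 to 21.8) in depleted and 22.2 FPKM (21.0 to 24.8) in control cells, a log2 ratio of -0.21 with overlapping bounds. The overlap comes only from transcripts listed at 0. Those above 0 in depleted cells had upper bounds of 4.89, 13.8 and 1.73 FPKM. In control cells the whole level came from the annotated transcript ENST00000348502. In depleted cells that transcript was at 4.45 FPKM, and an assembled 16-exon transcript that shares 14 introns with the gene was at 13.0 FPKM, with a further one at 1.54 FPKM.

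The assembled ACSL4 transcript differed from the annotated one at its 5′ end. It began on chromosome X at 109727784 (GRCh38, minus strand), inside the first annotated intron, where ENST00000348502 begins at 109733403. Exon 1 of the annotated form was covered by transcripts at 4.45 FPKM in depleted and 22.2 FPKM in control cells, 20.1% of control, against 79.0% at exon 2 and 85.9% at exons 3 to 16. Counting reference transcripts alone would thus put ACSL4 at a log2 ratio of -2.09, past 2-fold. Whether the depleted cells used another start or the assembly placed similar reads differently was not tested.

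LPCAT3, which inserts polyunsaturated acyl chains into lysophospholipids, was among the lowest of the 10 genes. It was at 6.51 FPKM (5.65 to 8.52) in depleted and 8.003 FPKM (7.29 to 9.99) in control cells, a log2 ratio of -0.26 with overlapping bounds. The protein-coding transcript ENST00000261407 was at 4.66 and 8.003 FPKM, while ENST00000535479, annotated as a target of nonsense-mediated decay, was at 1.84 FPKM in depleted cells and listed at 0 in control cells. On the protein-coding transcript alone the ratio was -0.67, a larger difference than in the summed level. LPCAT3 overlaps EMG1 on the opposite strand at its 3′ end, where reads of both genes cannot be told apart without strand.

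Among 20 genes of polyunsaturated fatty acid supply, lipid peroxidation and protection by monounsaturated fatty acids, 14 had at least 1 FPKM, 2 were 2-fold higher in depleted cells, beside 2.96% of all genes, and none was 2-fold lower, with a median of 0.02. Among genes above 0 in both libraries 1 of 13 was 2-fold higher, beside 1.55% of all such genes, since FADS2 leaves the count. SCD, the desaturase that makes oleic and palmitoleic acid, was at 27.6 FPKM in depleted and 7.01 FPKM in control cells, with a log2 ratio of 1.84 with bounds apart. FADS2, the desaturase that starts the making of polyunsaturated fatty acids, was at 18.1 FPKM in depleted cells and listed at 0 in control cells, for which no fold is given because a 0 there can be a failed estimate. FADS1, its neighbour in the genome and the next desaturase of that route, was at 25.9 and 24.8 FPKM, close to equal. MBOAT1, which places monounsaturated chains in phospholipids, had the lowest ratio, -0.57, but 0.00 on reference transcripts alone.

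Several iron genes carry a shared regulatory sequence. When iron is scarce, ACO1 and its relative IREB2 bind a hairpin called the iron-responsive element, which blocks translation when it lies in the 5′-UTR of ferritin messages and protects the message when it lies in the 3′-UTR of TFRC. The element was searched on the transcript strand as a C, any 5 bases and the loop CAGTGN, with the 5 bases before and after the loop able to pair. It was found in the 5′-UTRs of FTH1 and FTL, 4 times in the 3′-UTR of TFRC, and in no other of the 10 genes. The sequences are from the GENCODE 29 transcripts on GRCh38, with the unpaired C and the loop in capitals. Any link between the element and the RNA ratios of FTH1, FTL and TFRC was not tested.
FTH1, 5′-UTR, chr11:61967573-61967602, minus strand: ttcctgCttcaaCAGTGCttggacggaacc
FTL, 5′-UTR, chr19:48965335-48965364, plus strand: ctcttgCttcaaCAGTGTttggacggaaca
TFRC, 3′-UTR, chr3:196050978-196051007, minus strand: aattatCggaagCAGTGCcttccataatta
TFRC, 3′-UTR, chr3:196050574-196050603, minus strand: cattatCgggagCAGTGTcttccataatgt
TFRC, 3′-UTR, chr3:196050509-196050538, minus strand: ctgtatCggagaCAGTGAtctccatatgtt
TFRC, 3′-UTR, chr3:196050462-196050491, minus strand: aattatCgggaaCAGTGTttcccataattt

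The paired element is rare. Among the main protein-coding transcripts of 10076 expressed genes, 12 (0.119%) held it in the 5′-UTR and 62 (0.615%) in the 3′-UTR, and TFRC was the only gene with 4. The letters without the pairing rule stood in 7.04% of 5′-UTRs and 32.5% of 3′-UTRs.

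TFRC, the transferrin receptor that brings iron into the cell, was lower in RBMS1-depleted cells. It was at 76.4 FPKM (73.1 to 82.0) in depleted and 101 FPKM (96.8 to 108) in control cells, 75.5% of control, with bounds apart. All of it came from the transcript ENST00000360110, whose 2658-base 3′-UTR holds the 4 elements. The log2 ratio was -0.40 and ranged from -0.43 to -0.38 over the alternatives, of which those that change the transcripts counted could not move it. Of all genes, 10.9% had a ratio as low or lower, so the difference is a modest one within these libraries.

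FTH1, the ferritin heavy chain that oxidises iron for storage, was at the same level in both libraries within its bounds. FTH1 stood at 884 FPKM (839 to 929) in depleted and 906 FPKM (860 to 953) in control cells, a log2 ratio of -0.04. Its transcripts ENST00000620041, ENST00000530019 and ENST00000273550 were at 507, 313 and 63.7 FPKM in depleted and at 523, 311 and 72.7 FPKM in control cells, and all 3 hold the element in their 5′-UTR. Processed copies of FTH1 can share its reads, but its 25 annotated pseudogenes summed to 5.54 and 4.62 FPKM, 0.626% and 0.510% of the parent.

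FTL, the ferritin light chain that supports the iron core, was lower in RBMS1-depleted cells. The deposited assemblies hold, at the FTL locus on chromosome 19, the reference transcript ENST00000622577, which has the same 3 introns as the annotated FTL transcript ENST00000331825 but is not in GENCODE 29. It was at 993 FPKM (950 to 1036) in depleted and 1856 FPKM (1778 to 1935) in control cells, 53.5% of control and a log2 ratio of -0.90 with bounds apart. Its first exon starts at 48965309, upstream of the element printed above. Of 11220 genes counted with such transcripts, 349 or 3.11% had a ratio as low or lower. This value was added after FTL had been seen at 0 under the joining rule, and the 16 annotated FTL pseudogenes held 0.115 and 2.43 FPKM.

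The ferritin chains thus differed from each other. The heavy to light ratio in FPKM was 0.890 in depleted and 0.488 in control cells, and their sum was 1877 and 2762 FPKM, with nearly all of the gap on the light chain.

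**Figure D2:**
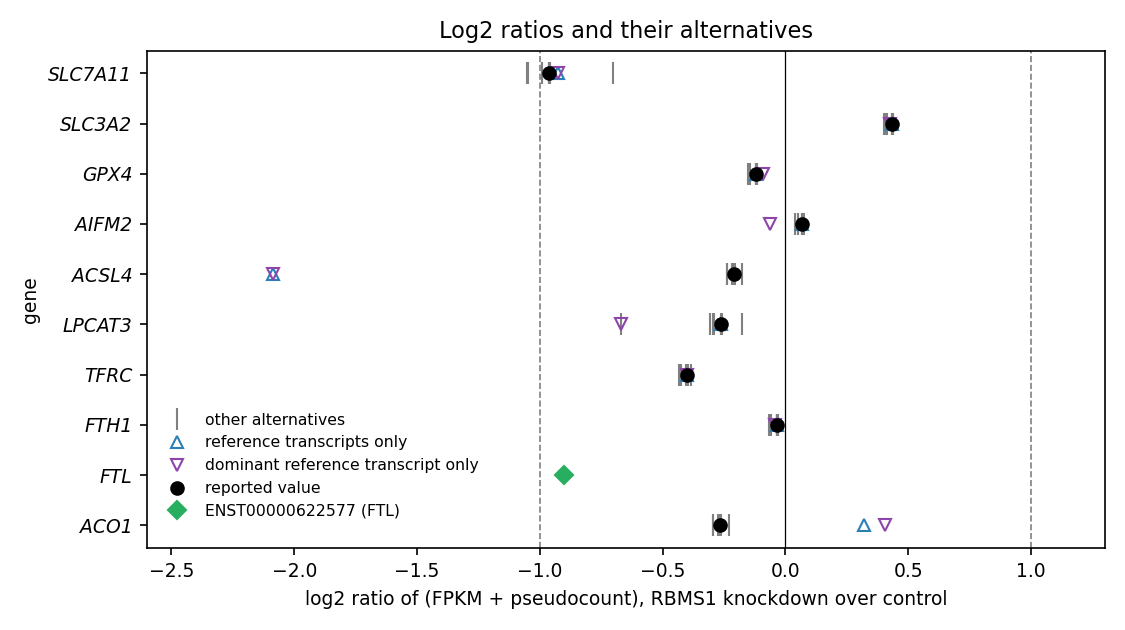
Log2 ratio of each gene, RBMS1-depleted over control, as reported (black) and under the alternative settings (grey ticks and open triangles), with dashed lines at 2-fold and a green diamond for FTL from ENST00000622577. SLC7A11 ranges from -1.05 to -0.70, ACSL4 moves from -0.21 to -2.09 with reference transcripts alone, and ACO1 changes sign from -0.26 to 0.32 or 0.41.

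ACO1, the cytosolic aconitase that becomes an iron sensor when its iron-sulfur cluster is lost, had a lower total whose direction depended on assembled transcripts. It was at 22.7 FPKM (21.3 to 24.1) in depleted and 27.5 FPKM (25.4 to 29.6) in control cells, a log2 ratio of -0.26 with bounds apart. The transcript ENST00000379923 was higher in depleted cells, at 20.4 against 15.2 FPKM, and ENST00000309951 was at 2.26 and 2.83 FPKM. Control cells alone had an assembled 21-exon transcript at 9.47 FPKM that skips exon 2, on chromosome 9 from 32386371 to 32386438. Exon 2 was accordingly at 20.4 and 15.2 FPKM, 135% of control, and exons 1 and 3 to 22 at 82.6%. On reference transcripts alone the ratio was 0.32, so no direction is given for ACO1.

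Of 24 further genes of iron uptake, storage, export and sensing, 18 had at least 1 FPKM, 1 was 2-fold higher in depleted cells, beside 2.96% of all genes, none was 2-fold lower, beside 2.8%, and the median was 0.00. SLC40A1, ferroportin, the iron exporter, was the one at 2-fold, at 2.18 against 0.535 FPKM and a ratio of 1.05 with overlapping bounds. Outside the 10 genes, its 5′-UTR also held the paired element, at chr2:189580660-189580689 (GRCh38, minus strand), printed as above.
SLC40A1, 5′-UTR: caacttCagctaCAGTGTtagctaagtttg

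SLC11A2, the transporter DMT1 that moves iron out of endosomes after TFRC uptake, had the lowest ratio, -0.91, at 4.18 against 8.76 FPKM with bounds apart. NCOA4, the receptor that delivers ferritin for breakdown, was at 34.7 and 34.9 FPKM, but its reference transcripts alone gave a ratio of 1.37. IREB2 was at 9.08 and 7.53 FPKM. The heme oxygenases, which free iron from heme, were at 3.17 and 2.86 FPKM for the inducible HMOX1 and at 33.5 and 20.2 FPKM for the constitutive HMOX2, a ratio of 0.71. The ratio of HMOX1 was 0.11 and became -0.44 with reference transcripts alone.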

How the data were processed

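The authors deposited, for each of the 2 libraries, the transcripts of a Cufflinks run with their FPKM and its bounds, and a table of their own comparison with FPKM, fold changes, p-values and q-values, of which the comparison columns were not used. Per the labels, Bowtie2 2.0.6, TopHat2 2.0.9, Cufflinks 2.1.1 and Cuffdiff 2.1.1 were run. The genome build, annotation and strand are not given in the sources used here. Reference transcripts were joined by Ensembl identifier to GENCODE 29, and 98.1% of those matched started at its GRCh38 positions. Assembled transcripts were given to the gene with which they shared most introns, at least 1, on the same strand. The remaining assembled transcripts, which held 54.9% and 60.3% of the FPKM in depleted and control cells, were not used. Depth in reads is unknown. The median coverage per FPKM was 12.3 and 11.3, so precision for low genes was similar in both libraries.

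The members, the 5 surrounding lists and the alternatives were chosen with earlier results of these data known. Named were all 10 genes, RBMS1, and in each list every gene at 2-fold and otherwise those with the lowest and the highest log2 ratio. 1 gene that this rule names is not reported here. NCOA4, IREB2, HMOX1, HMOX2, FADS1, SECISBP2, SEPHS2, GCLC and GCLM were named after their values were seen. The scripts were tested on simulated data and ran in Python 3.11.15 with pandas 2.3.3, numpy 2.4.6 and matplotlib 3.10.9. The alternatives were other pseudocounts, scalings, filters and sets of transcripts.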

Additional observations from a re-analysis of the deposited data

How the results depend on the processing

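The alternatives changed the scale of the values (a pseudocount of 0.1 or 5 FPKM, median, TPM or upper quartile scaling), the filter (a mean of at least 5 FPKM, none, or genes above 0 in both libraries, the last added after the data were seen) and the transcripts counted. SLC7A11 stayed lower in all 10, at -1.05 with a pseudocount of 0.1, -1.05 with TPM scaling and -0.70 with a pseudocount of 5, where RBMS1 was -1.73. With reference transcripts only, or the dominant reference transcript only, ACSL4 was -2.09 in both and ACO1 turned to 0.32 and 0.41. FTL had a value, -0.90, only with the transcripts absent from GENCODE 29. SLC3A2, GPX4, TFRC, FTH1 and LPCAT3 kept their direction in all 10, and AIFM2 turned to -0.06 in 1. A pseudocount alone cannot turn a direction. TFRC has 1 expressed transcript, so the sets of transcripts could not change its ratio.

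The share of all genes 2-fold lower and higher was 1.19% and 1.11% with a pseudocount of 5, 4.87% and 5.31% when reference transcripts alone were counted, 4.74% and 4.97% for the dominant transcript, 0.858% and 0.915% without a filter, and 1.57% and 1.55% among genes above 0 in both, and 1.93% were higher at a mean of at least 5. The share lower was 3.77% with a pseudocount of 0.1 and 3.47% with TPM scaling. Of the 9 members, 1 was 2-fold lower with a pseudocount of 0.1, TPM scaling, reference transcripts only or the dominant transcript. With reference transcripts only or the dominant transcript, 1 glutathione gene and 1 gene of the coenzyme Q10 list were 2-fold higher. The selenoprotein list's median was 0.030 and 0.15 under these settings, 0.012 with protein-coding reference and assembled transcripts or a mean of at least 5, and 0 without a filter. In the fatty acid list 1 gene was 2-fold lower with reference transcripts only and 1 was higher among genes above 0 in both. In the iron list 1 gene was 2-fold lower with a pseudocount of 0.1, TPM scaling, reference transcripts only or protein-coding ones, 0 were higher with a pseudocount of 5 or a mean of at least 5, 3 and 2 were higher under reference transcripts only and under the dominant transcript, and its medians there were 0.17 and 0.23.

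No paired analysis was possible because each arm holds 1 library. With these libraries no difference can be set against the spread between cultures, the direction of ACO1 rests on which transcripts are counted, and reads shared with overlapping genes cannot be told apart without strand.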

Other observations

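The authors' table holds 8 transcripts of 6 of the 10 genes. It lists FPKM on another scale, with a median of 1.74 times the library values in depleted and 1.77 times in control cells, and holds only transcripts selected by their p-value, so absence from it says nothing about a gene. Its own FPKM for the SLC7A11 transcript ENST00000280612 were 8.63 in depleted and 21.0 in control cells. For FTL it lists the GENCODE transcript ENST00000331825 at 16.5 in depleted and 6.08 in control cells, the opposite direction to ENST00000622577 in the library files. The minor SLC3A2 transcripts ENST00000377889 and ENST00000535296 were at 5.41 and 11.3 in depleted and at 2.503 and 6.21 in control cells, and both were listed at 0 in the library files. The FTH1 transcript ENST00000529548 was at 17.1 and 6.57 in that table and listed at 0 in the library files, and another, ENST00000529631, was listed at 0 in depleted and 1.52 in control cells. The remaining ones were ENST00000309951 of ACO1 at 3.77 and 5.80, and ENST00000340800 of ACSL4 at 0.573 in depleted cells and listed at 0 in control cells.

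The iron list also holds CISD1 and CISD2, iron-sulfur proteins of the mitochondrial outer membrane and the endoplasmic reticulum, both with bounds apart. CISD1 was at 33.5 FPKM in depleted and 51.2 FPKM in control cells, with a log2 ratio of -0.60 that became 0.15 with reference transcripts only. CISD2 was at 15.01 and 21.1 FPKM, a ratio of -0.46 that became 1.86 with reference transcripts only. PRDX6, a peroxiredoxin that also reduces phospholipid peroxides, was at 88.8 and 116 FPKM, a ratio of -0.39 that became 0.16 with reference transcripts only. These genes were picked after their values were seen.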
